A study of Rattus norvegicus with 13 samples.

Results

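Genes of the splicing factor and RNA-binding protein families were compared between 2 ages of rat mammary epithelial cells, within WOS and outside WOS. WOS stands for window of susceptibility, the age at which the gland of a susceptible rat most readily forms carcinogen-induced tumours. The members are the 104 of 14790 genes in the expression table whose symbols begin with the names of these families. They comprise 13 SR proteins with the Tra2 proteins, 19 hnRNP proteins, 3 polypyrimidine tract binding proteins, 12 subunits of SF3A, SF3B and U2AF, 4 CLK kinases, 2 ESRP, 3 CELF, 3 MBNL, 1 RBFOX and 2 KHDRBS proteins, 3 RBMS proteins and 39 RBM and RBMX proteins. The rule reads only gene names, but the families were chosen with earlier results of these data known. All 104 met the minimum mean of 1 for testing. The 6 younger rats were 6 weeks old (within WOS) and the 7 older rats 10 weeks (outside WOS). All 13 rats were of the Wistar-Furth strain, none had a treatment named in the labels, and each gave 1 library. Per the labels, the cells were ductal fragments enriched by collagenase digestion and filtration of the abdominal and inguinal glands, and by the study's methods such fragments still hold fibroblasts and immune cells beside the epithelium. Values are normalized counts, that is, estimated read counts scaled per library and rounded to whole numbers.

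Most transcripts of multi-exon genes are cut and joined by the spliceosome, in which the U1 particle marks the start of the intron and U2AF, SF3A and SF3B bring the U2 particle to the branch point. SR proteins bind exons and recruit this machinery through domains rich in arginine and serine, which the CLK and SRPK kinases phosphorylate. Many hnRNP proteins and the PTBP proteins coat the transcript and often oppose exon use, whereas ESRP, RBFOX, MBNL, CELF and KHDRBS proteins steer the choice of exons in a tissue-dependent manner. ESRP proteins are best known in epithelia, the main cell type of mammary ducts. Levels of these messengers do not measure splicing itself, and no exon or isoform values were analysed here.

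Apart from age, the rats were divided into 2 sets. Once each gene's age means were taken out, the leading principal component of what remained carried 28.3% of the variation, and its widest gap put 5 rats (75 and 80 at 6 weeks, 78, 81 and 83 at 10 weeks, the smaller set) apart from the other 8 (the larger set). A cut at the widest gap always gives 2 sets, and whether the rats form separate groups was not tested. The labels give no batch for this split. Most members, 97 of 104, overlapped between the sets. The 7 that did not were 6.73% of the members, against 5.13% of all genes, and since the split was made from all genes this is only a description. The sets did not overlap for *Sf3a2* (291 to 649 in the smaller set, 82 to 209 in the larger), *Rbm19*, *Rbm33*, *Rbm15b*, *Clk2* and *Rbm14*, all higher in the smaller set, or for *Rbm7*, higher in the larger set. These genes were noted after their values were seen.

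The members were more often lower than higher within WOS. In a limma fit across the whole table, 77 of 104 members (74.0%) had a lower mean at 6 weeks, against 47.5% of all genes, and the median log2 fold change (6 weeks over 10 weeks) was -0.16 for the members and 0.028 for all genes. In all, 11 members were differentially expressed (DE, adjusted p under 0.05 over all 14790 genes) with higher levels at 10 weeks, 10.6% of the members against 7.39% of all genes. Only 3 members, 2.88% against 8.71% of all genes, were DE with higher levels at 6 weeks. The rats of the 2 ages did not overlap for 5 members higher at 10 weeks and for 1 higher at 6 weeks, where 2.78% and 3.29% of all genes had no overlap. At an unadjusted p under 0.05, 29 members (27.9%) were lower and 6 (5.77%) were higher at 6 weeks, against 14.8% and 16.8% of all genes.

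**Figure D1:**
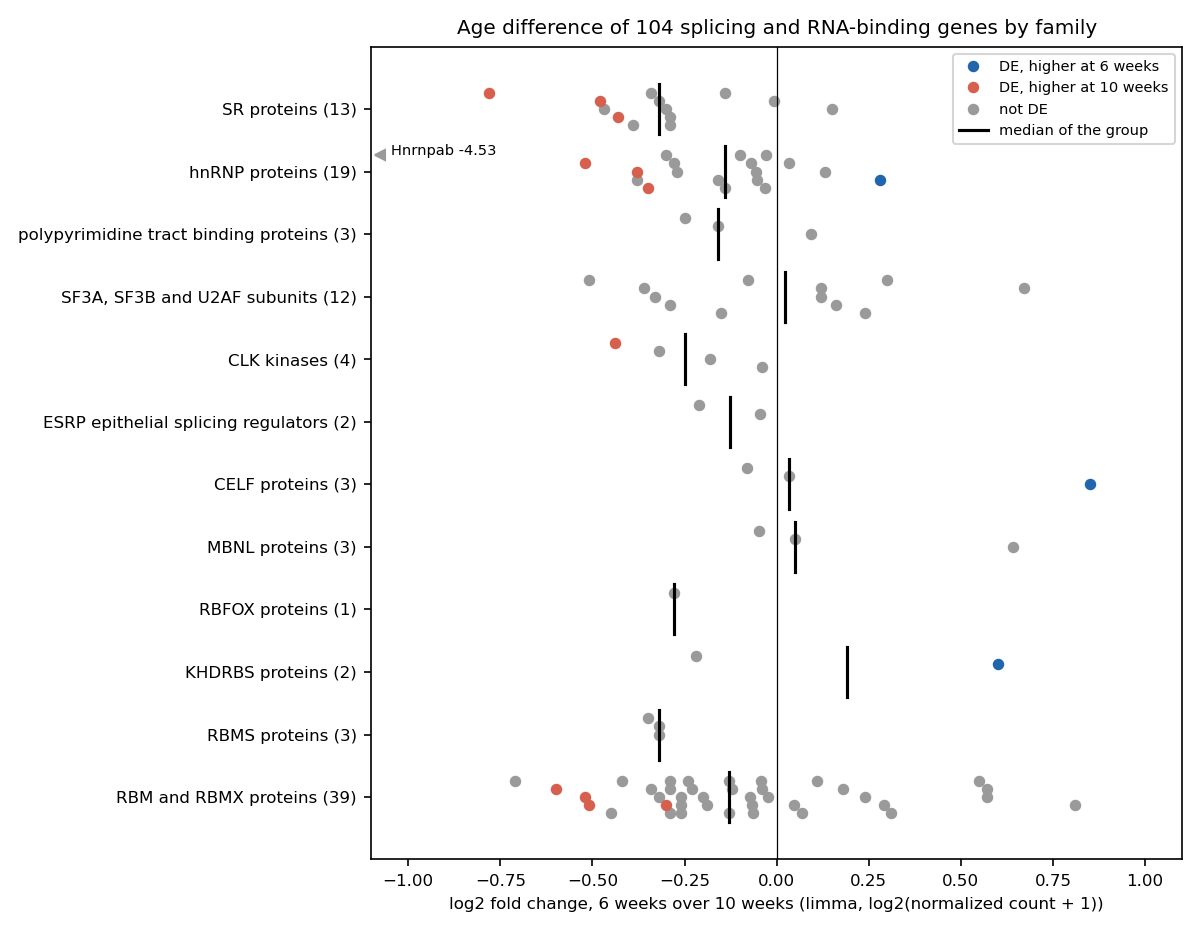
Log2 fold change (6 weeks over 10 weeks, limma on log2 of the normalized count plus 1) of each of the 104 genes, by family. Points are genes, red where DE and higher at 10 weeks, blue where DE and higher at 6 weeks, grey where not DE, and black lines are family medians. The SR proteins have a median of -0.32 and the SF3A, SF3B and U2AF subunits of 0.02, and *Hnrnpab*, at -4.53, lies beyond the axis.

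The lean of the members showed in the single rats too. Taken per rat as the median difference from the 10-week mean of each gene (log2 scale), it ran from -0.305 to -0.108 at 6 weeks and from -0.106 to 0.198 at 10 weeks, so that the ages just did not overlap. The SR proteins gave -0.537 to -0.173 at 6 weeks and -0.251 to 0.275 at 10 weeks, and here the ages overlapped. The members took 0.992% to 1.127% of a rat's total at 6 weeks (median 1.03%) and 1.023% to 1.248% at 10 weeks (median 1.115%), and these shares overlapped as well. A single gene, AY172581.24, took 14.34% to 27.93% of the total at 6 weeks and 14.49% to 21.16% at 10 weeks. Rat 86 had both its highest share and the lowest share of the members. Shares of the total, and scaling to equal totals, depend on this gene too.

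**Figure D2:**
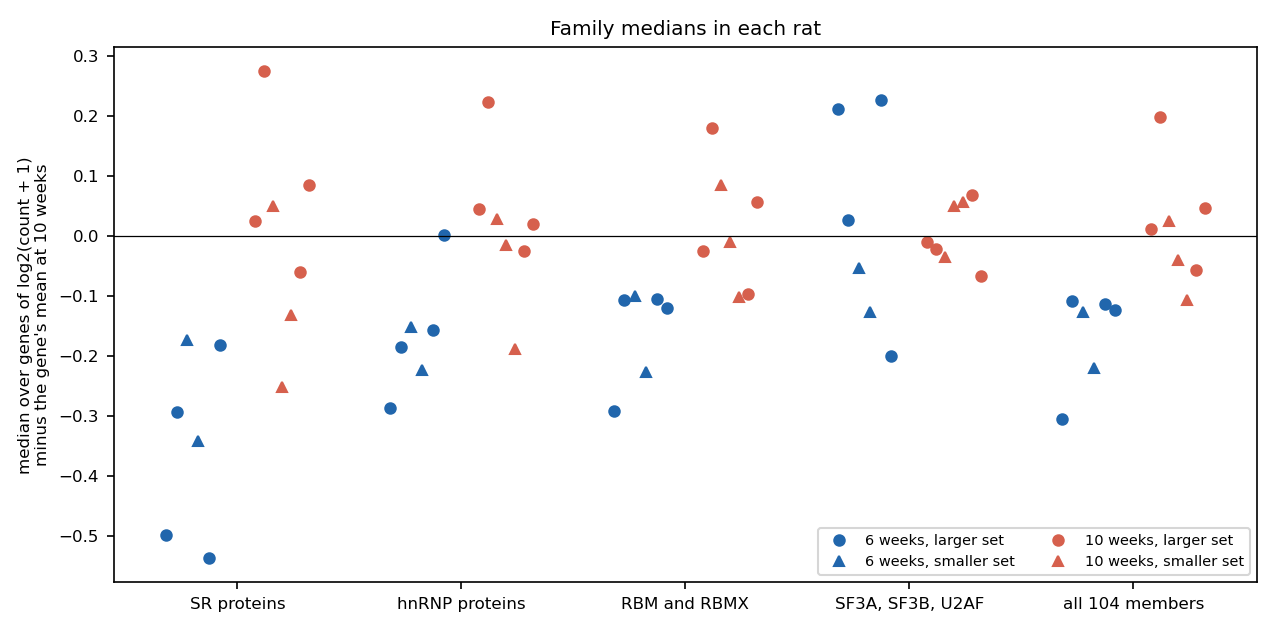
Median over genes of the log2 difference from the gene's mean at 10 weeks, for 4 families and all 104 members. Each point is 1 rat, blue at 6 weeks and red at 10 weeks, with circles for the larger set of rats and triangles for the smaller. For all members the 6-week rats lie between -0.305 and -0.108 and the 10-week rats between -0.106 and 0.198.

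Library totals and the levels of cell type markers were also compared between the ages. Totals per rat ran from 13261906 to 15659533 normalized counts at 6 weeks and from 13766735 to 15402814 at 10 weeks. Of 9 fibroblast markers, 7 were DE and higher at 6 weeks, none was at 0 in any rat, and their summed level ran from 150078 to 291751 at 6 weeks and from 29983 to 77819 at 10 weeks, without overlap. Of 19 cell cycle genes, 18 were DE and higher at 6 weeks (4347 to 9249 against 651 to 2304 summed). Of 7 mast cell markers, 6 were DE and higher at 6 weeks and *Kit* was DE and higher at 10 weeks, and the sums overlapped (1858 to 2906 against 1523 to 3780). Without *Kit*, whose counts made up most of that sum, the other 6 summed to 406 to 965 at 6 weeks and 25 to 240 at 10 weeks, without overlap. Mast cell *Hdc*, *Tpsb2*, *Ms4a2* and *Tpsab1* were at 0 in some rats. Of 9 adipocyte markers, 4 were DE and higher at 6 weeks (2006 to 2839 against 2004 to 3056 summed), and *Adipoq* and *Plin1* were at 0 in some rats. Of 14 luminal markers, 2 were DE and higher at 10 weeks, *Ehf* and *Epcam* (34326 to 64538 against 49215 to 74799 summed), and of 10 basal markers 1 was, *Cnn1* (32586 to 46450 against 42295 to 51488 summed). None of 9 endothelial and 10 macrophage markers was DE in limma, with 1 endothelial and 1 macrophage marker at an unadjusted p under 0.05. Of 4 lymphocyte markers in the table *Cd79b* was DE and higher at 6 weeks (73 to 210 against 90 to 314 summed), of 3 skeletal muscle markers none was DE in limma and 1 was higher at an unadjusted p under 0.05, and of 10 nerve and Schwann cell markers 2 were DE and higher at 6 weeks and 1 at 10 weeks. The part of these cell types in the members' differences was not tested. In RNA of a mixed tissue, fewer cells of a type and less RNA per cell cannot be told apart.

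Promoter sequences are shown for the 6 DE members whose rats did not overlap between the ages. They are from RefSeq (rat build GRCr8), written 5′ to 3′ on the gene's strand, from 150 bases before to 50 bases after the annotated start, the most upstream one where there were several. Capitals mark matches, on either strand, to 8 motifs, namely the GC box GGGCGG, the ETS core CCGGAA, the CCAAT box CCAAT, the core TGACG of the cyclic AMP response element, the NRF1 core GCATGCGC, the YY1 core AAGATGG, the E-box CACGTG and the TATA box TATAAA. Neighbouring GC boxes overlap near the start of *Srsf2*.
*Srsf2*, chr10:102554092-102554291, minus strand: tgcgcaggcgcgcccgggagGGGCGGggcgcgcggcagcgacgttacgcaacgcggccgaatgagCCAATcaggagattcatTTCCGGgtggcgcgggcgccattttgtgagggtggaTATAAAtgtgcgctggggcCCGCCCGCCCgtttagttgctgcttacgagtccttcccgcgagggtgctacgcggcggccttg
*Srsf10*, chr5:153372166-153372365, plus strand: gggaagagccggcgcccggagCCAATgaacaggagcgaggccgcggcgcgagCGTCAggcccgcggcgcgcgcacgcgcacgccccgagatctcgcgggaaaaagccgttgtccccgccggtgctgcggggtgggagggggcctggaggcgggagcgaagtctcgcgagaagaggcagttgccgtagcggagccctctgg
*Hnrnph3*, chr20:25619390-25619589, plus strand: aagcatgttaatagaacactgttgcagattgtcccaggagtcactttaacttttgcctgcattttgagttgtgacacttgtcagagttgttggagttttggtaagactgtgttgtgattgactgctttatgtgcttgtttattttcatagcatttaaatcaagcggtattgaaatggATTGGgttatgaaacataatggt
*Hnrnpdl*, chr14:9861566-9861765, plus strand: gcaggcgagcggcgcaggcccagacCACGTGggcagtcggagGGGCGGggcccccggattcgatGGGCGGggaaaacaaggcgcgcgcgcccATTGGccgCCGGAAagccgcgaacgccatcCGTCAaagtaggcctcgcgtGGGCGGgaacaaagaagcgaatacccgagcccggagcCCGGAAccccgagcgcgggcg
*Rbm4b*, chr1:211477187-211477386, plus strand: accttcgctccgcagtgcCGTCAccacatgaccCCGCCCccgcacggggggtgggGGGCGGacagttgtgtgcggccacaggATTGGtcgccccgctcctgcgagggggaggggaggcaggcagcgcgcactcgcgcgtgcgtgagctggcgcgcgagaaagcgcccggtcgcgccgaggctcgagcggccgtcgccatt
*Hnrnpul1*, chr1:90390321-90390520, minus strand: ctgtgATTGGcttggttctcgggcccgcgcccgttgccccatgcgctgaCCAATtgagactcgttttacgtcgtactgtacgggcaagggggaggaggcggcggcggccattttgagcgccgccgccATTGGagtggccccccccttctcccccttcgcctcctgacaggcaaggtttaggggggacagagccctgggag

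A promoter was matched by symbol for 87 of the 104 members, and the shares below describe letters only. CCAAT was found in 33 of 87 member promoters (37.9%) and in 9 of the 11 genes DE and higher at 10 weeks, against 28.7% of the 10104 promoters matched to genes of the table and 27.7% of all 33469 promoters of this length. It was absent from the windows of *Rbm28* and *Rbm15*. TGACG was found in 37 member promoters (42.5%) and 7 of those 11, against 25.1% of the table's promoters and 16.6% of all. GGGCGG was found in 41 member promoters (47.1%) and 6 of the 11, against 55.9% and 29.1%. CCGGAA was in 25.3% of member promoters and in 22.1% and 12.2% of the table's and all promoters. The other 4 motifs were in 4.6% (NRF1), 10.3% (YY1), 9.2% (E-box) and 5.75% (TATA) of the member promoters, against 3.75%, 6.24%, 6.86% and 4.46% of the table's and 1.97%, 4.96%, 4.59% and 9.41% of all. *Hnrnph3* differed in base composition, with a GC content of 36.5% in its window, where the other 5 windows shown had 65.5% to 74.5%. The bases just before its annotated start are rich in T and end in AG, as at the end of an intron, so this window may not be a promoter. Its only match, the CCAAT box, lies 27 bases after that start and is counted among the 9 of 11. Whether transcripts begin there was not tested.

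SR proteins stood lower within WOS for 12 of 13 genes (92.3%, against 47.5% of all genes), with a median log2 fold change of -0.32. DE were 3 of them, all higher at 10 weeks (23.1%, against 7.39% of all genes). The largest difference was in *Srsf10* (ENSRNOG00000007992), an SR protein that represses splicing when it loses its phosphates. Its normalized counts at 6 weeks had a lowest value of 326, a median of 470.5 and a highest value of 594. At 10 weeks they were 667, 789 and 1014. Every 6-week rat was therefore below every 10-week rat. The log2 fold change was -0.78 (SE 0.16, adjusted p = 0.00583, limma), which puts the 6-week level at 58.1% of the 10-week level.

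*Srsf2* (ENSRNOG00000000248), the nuclear speckle protein also known as SC35, likewise showed no overlap. Its counts were 3171, 3531 and 3864 (lowest, median, highest) at 6 weeks and 4325, 4750 and 5294 at 10 weeks, a log2 fold change of -0.43 (SE 0.089, adjusted p = 0.00674). *Srsf3* (ENSRNOG00000000520), which also takes part in the export of messengers from the nucleus, had counts of 2609, 2910 and 3295 at 6 weeks and 3259, 4349 and 4988 at 10 weeks. Of its 6 younger rats, 5 were below all older rats, and the highest young rat exceeded the lowest older one. Its log2 fold change was -0.48 (SE 0.11, adjusted p = 0.0144). All 3 genes remained DE in each of 13 fits that left out 1 rat.

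The other SR proteins leaned the same way without passing the threshold. *Srsf1*, the founding member of the family, had counts of 2007, 3113.5 and 3541 at 6 weeks and 3136, 3720 and 4585 at 10 weeks, a log2 fold change of -0.34 (95% interval -0.65 to -0.032, adjusted p = 0.121). *Srsf7* (-0.47, adjusted p = 0.065), *Tra2a* (-0.39, adjusted p = 0.0633) and *Srsf6* (-0.32, adjusted p = 0.065) lay close to the threshold, and these were picked out after their values were seen. Without rat 81 each of the 3 passed it, with adjusted p = 0.0323, 0.0359 and 0.0361, and *Srsf7* also passed without rat 75 (0.0384) and *Tra2a* without rat 86 (0.0474). *Srsf12*, *Srsf4*, *Srsf11* and *Tra2b* ran from -0.3 to -0.14, *Srsf5* was at -0.0069, and *Srsf9* was the only SR gene with a positive value, 0.15 (SE 0.17, adjusted p = 0.576).

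**Figure D3:**
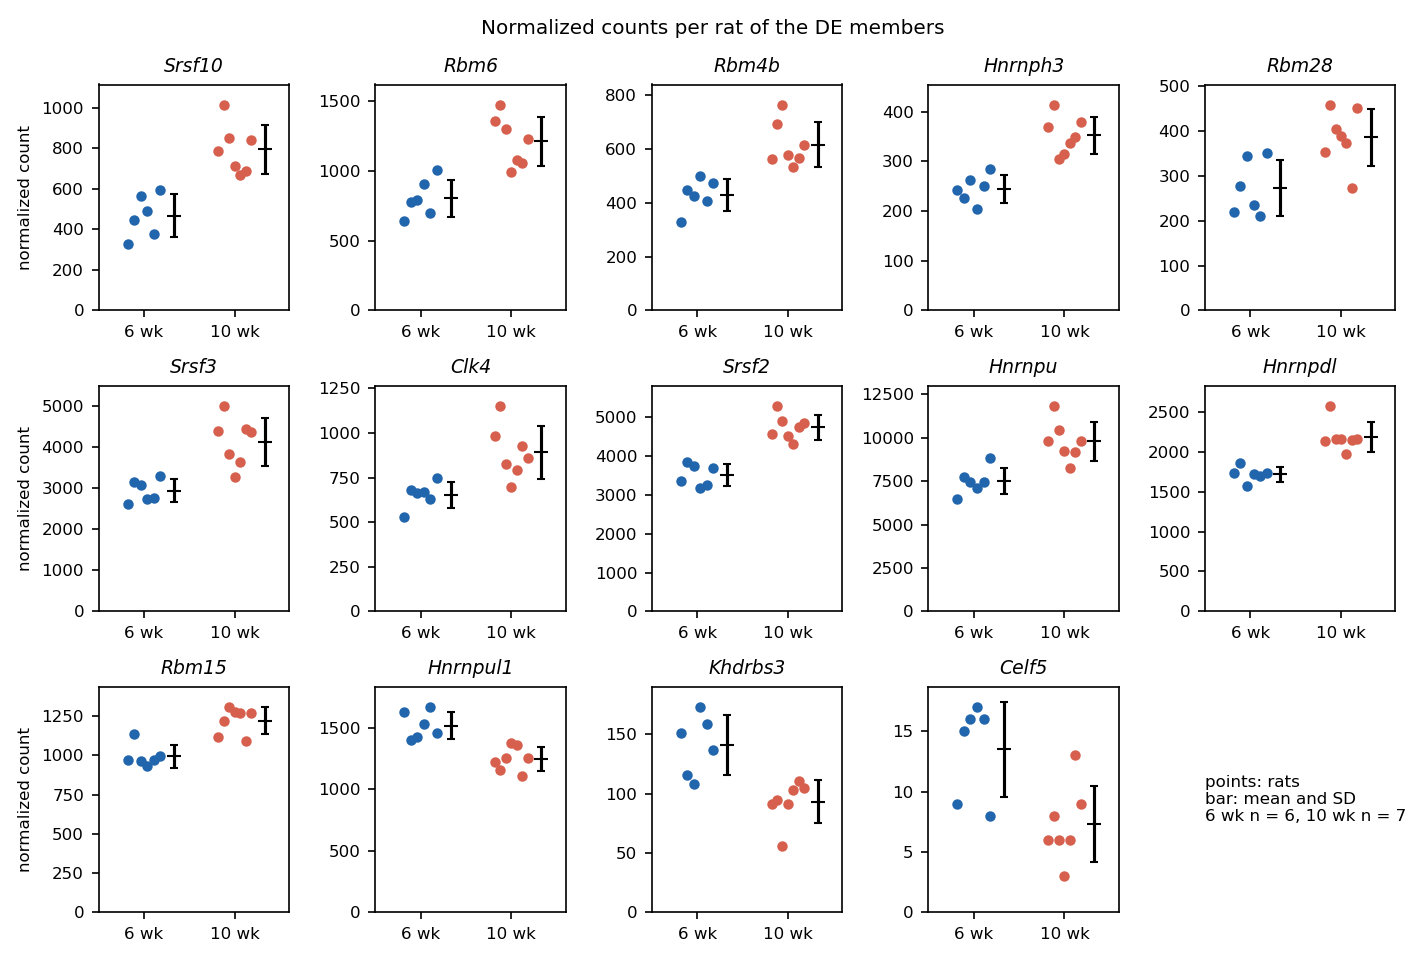
Normalized counts of the 14 DE members, 1 panel per gene, on linear axes that start at 0. Points are rats (blue 6 weeks, n = 6, red 10 weeks, n = 7) and the bar beside them gives the mean and SD. In *Srsf10*, *Srsf2*, *Rbm4b*, *Hnrnph3*, *Hnrnpdl* and *Hnrnpul1* the ages do not overlap, and *Celf5* stays at 17 or below in every rat.

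The kinases of SR proteins were compared next. All 4 CLK genes had negative log2 fold changes (median -0.25), and 1 was DE, higher at 10 weeks (25%, against 7.39% of all genes). *Clk4* (ENSRNOG00000003714), a nuclear kinase of SR proteins, had counts of 528, 667 and 748 at 6 weeks and 697, 861 and 1151 at 10 weeks, and 5 of 6 younger rats were below all older ones. With a log2 fold change of -0.44 (SE 0.13, adjusted p = 0.0335) it was DE. It fell short of the threshold when rat 70, 71, 84, 72, 74, 85 or 87 was left out (adjusted p up to 0.0791), and when libraries were scaled to equal totals. *Clk1* had counts of 2364, 2653 and 3041 at 6 weeks against 2320, 3547 and 4541 at 10 weeks. The ages overlapped and the log2 fold change of -0.32 (SE 0.15) did not pass (adjusted p = 0.158), although it did without rat 81 (-0.42, adjusted p = 0.0407). *Clk2* and *Clk3* were at -0.18 and -0.039.

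Beyond the members, a list of SR protein kinases and SR-related proteins, genes that work with the SR proteins, had 24 genes in the table. Of these, 23 were lower at 6 weeks (median -0.27), 7 (29.2%, against 7.39% of all genes) were DE and higher at 10 weeks and none was DE, or had an unadjusted p under 0.05, in the other direction. *Srpk1*, the main cytoplasmic kinase of SR proteins, was at 980, 1132 and 1245 within WOS and at 1468, 1631 and 2024 outside, without overlap (log2 fold change -0.58, SE 0.1, adjusted p = 0.00205). *Nktr*, a cyclophilin with an arginine and serine rich tail, was at -0.52 (adjusted p = 0.0479), and *Pnn*, the speckle protein pinin, at -0.48 (adjusted p = 0.0301). The number of DE genes in this list ran from 1 to 8 when single rats were left out. It was 1 without rat 70, 72 or 74, 2 without rat 71, 84 or 87 and 4 without rat 80 or 78.

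hnRNP proteins were lower within WOS for 16 of 19 genes (median -0.14). DE were 3 genes higher at 10 weeks (15.8%, against 7.39% of all genes) and 1 higher at 6 weeks (5.26%, against 8.71%). *Hnrnph3* (ENSRNOG00000048193), of the group that binds runs of G, had counts of 203, 246.5 and 284 at 6 weeks and 304, 348 and 413 at 10 weeks. The ages did not overlap, and the log2 fold change was -0.52 (SE 0.11, adjusted p = 0.00692). Its relatives *Hnrnph1* (-0.1, adjusted p = 0.507), *Hnrnph2* (-0.054, adjusted p = 0.75) and *Hnrnpf* (-0.033, adjusted p = 0.861) gave values nearer to 0, and the difference between them and *Hnrnph3* was not tested.

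*Hnrnpdl* (ENSRNOG00000002270), a relative of the AU-rich element binding protein *Hnrnpd*, also separated the ages. Its counts were 1568, 1722 and 1858 at 6 weeks and 1968, 2156 and 2572 at 10 weeks, a log2 fold change of -0.35 (SE 0.087, adjusted p = 0.0189). It was no longer DE when libraries were scaled to equal totals. *Hnrnpu* (ENSRNOG00000033790), which binds both RNA and the nuclear scaffold, had counts of 6495, 7455 and 8813 against 8259, 9791 and 11815, with 5 of 6 younger rats below all older ones. Its log2 fold change of -0.38 (SE 0.11, adjusted p = 0.028) missed the threshold without rat 70, 84, 72, 74, 78 or 87 (adjusted p up to 0.0683).

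*Hnrnpul1* (ENSRNOG00000020683), an hnRNP U-like protein with a part in the response to DNA breaks, went the other way. Its counts were 1402, 1493 and 1667 at 6 weeks and 1105, 1251 and 1376 at 10 weeks, so every young rat exceeded every older rat. Its log2 fold change was 0.28 (SE 0.09, adjusted p = 0.0474). The call was close to the threshold, held without rat 81 or 83 and was lost without any of the other rats (adjusted p up to 0.108) and under median-ratio scaling. *Hnrnpa1*, a widely studied repressor of exon use, had counts of 3329, 4108 and 4308 against 3284, 4281 and 5174, and its log2 fold change was -0.069 (95% interval -0.33 to 0.2, adjusted p = 0.733). Leaving aside *Hnrnpab*, which is described with the genes at 0, the hnRNP genes that were not DE ran from -0.38 for *Hnrnpd* (adjusted p = 0.157) to 0.13 for *Hnrnpl* (adjusted p = 0.434).

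Among the polypyrimidine tract binding proteins none was DE in limma, and none had an unadjusted p under 0.05. *Ptbp1*, the form found in most non-neuronal cells, had counts of 3638, 4553 and 5190 within WOS and 3173, 3935 and 6318 outside. The older rats spanned the younger ones, and the log2 fold change was 0.092 (95% interval -0.29 to 0.47, adjusted p = 0.753). *Ptbp2* and *Ptbp3* were at -0.16 and -0.25, with adjusted p of 0.342 and 0.188.

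The subunits that recognise the branch point and the end of the intron were split in direction. Of 12 SF3A, SF3B and U2AF genes 6 were lower and 6 higher at 6 weeks (median 0.02), and none was DE in limma. At an unadjusted p under 0.05, 3 were lower (25%, against 14.8% of all genes) and 1 was higher (8.33%, against 16.8%). *Sf3b1*, the largest SF3B subunit, had counts of 9403, 10645 and 11851 at 6 weeks and 9336, 11541 and 12918 at 10 weeks. The ages overlapped, with a log2 fold change of -0.077 (95% interval -0.31 to 0.15, adjusted p = 0.653). The family ran from -0.51 for *Sf3a2* to 0.67 for *Sf3b5*, both with wide errors (SE 0.54 and 0.38). Those with an unadjusted p under 0.05 were *Sf3a3* (-0.36), *U2af1*, the subunit that reads the AG at the intron's end (-0.33), *Sf3b3* (-0.29) and *Sf3b2* (0.3), with adjusted p of 0.0926, 0.0859, 0.109 and 0.121.

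Other parts of the spliceosome were given by lists. Of 28 genes of the snRNP core, the Sm and LSm rings and the proteins of the U particles, 21 were higher at 6 weeks (median 0.26), and 3 were DE, all higher at 6 weeks. That is 10.7% of the list, near the 8.71% of all genes. They were *Snrnp25* of the minor spliceosome (19, 34.5 and 61 against 11, 15 and 25, log2 fold change 1.1, adjusted p = 0.0155), *Snrpc* of the U1 particle (173, 195.5 and 293 against 58, 127 and 167, 0.81, adjusted p = 0.0405) and *Lsm5* of the ring on U6 (66, 115.5 and 165 against 50, 62 and 107, 0.78, adjusted p = 0.0402). The rats of the 2 ages did not overlap for *Snrpc* alone. The 3 calls became 1 without rat 70, 71, 84, 72, 74 or 87, and reached 5 without rat 85. In the smaller set of rats alone the list's median was -0.0065.

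Of 42 genes of the Prp19 complex, the tri-snRNP and the step factors 22 were lower and 20 higher (median -0.037). They have 41 symbols, since *Crnkl1* has 2 Ensembl entries, at -0.079 and 0.37, and so counts in both directions. *Prpf39*, a U1-associated protein (-0.65, adjusted p = 0.0319), and *Sf1*, which binds the branch point first (-0.46, adjusted p = 0.0332), were DE and higher at 10 weeks, and *Prpf31* of the tri-snRNP (0.36, adjusted p = 0.0425) was DE and higher at 6 weeks. The genes DE and higher at 10 weeks were 4.76% of the list and those at 6 weeks 2.38%, against 7.39% and 8.71% of all genes. Of 14 genes of the exon junction complex and of nonsense-mediated decay, 10 were lower (median -0.13), and *Smg1*, the kinase of Upf1, was the 1 DE gene (-0.43, adjusted p = 0.0325). That is 7.14% of the list, near the 7.39% of all genes DE and higher at 10 weeks. Without 1 rat, the Prp19 list gave 0 to 3 DE genes higher at 10 weeks and 0 to 2 higher at 6 weeks, and the decay list gave 0 to 2 and 0 to 1.

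**Figure D4:**
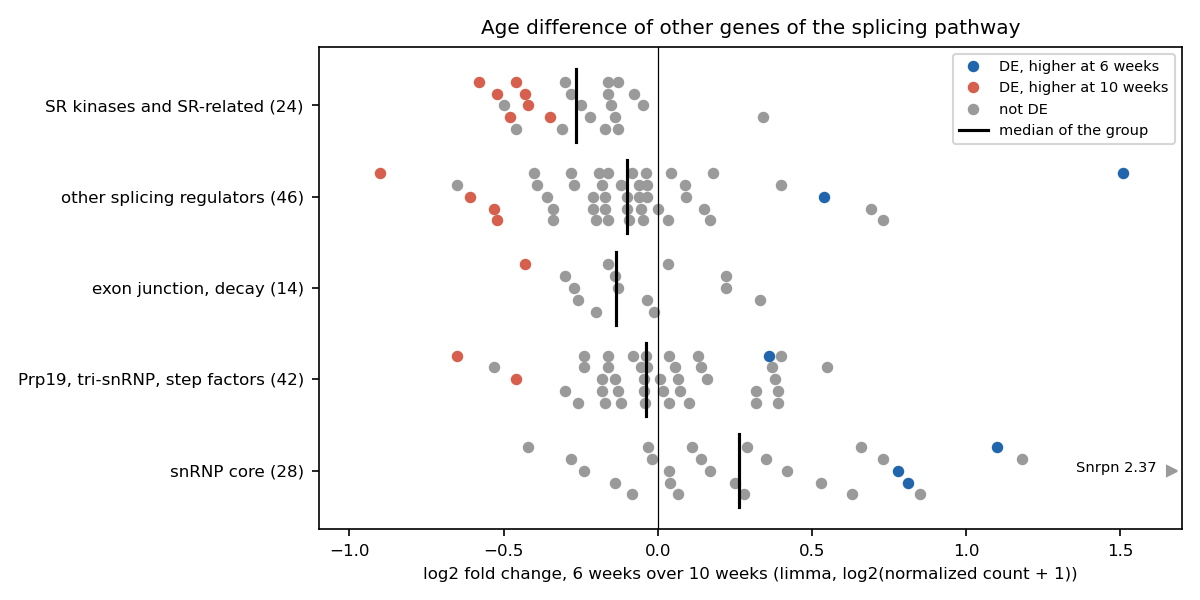
Log2 fold change (6 weeks over 10 weeks, limma) of genes of the splicing pathway outside the member families, in 5 lists with the number of genes in parentheses. Points are genes, red where DE and higher at 10 weeks, blue where DE and higher at 6 weeks, grey where not DE, and black lines are medians. The SR kinases and SR-related genes have a median of -0.27 and the snRNP core of 0.26, and *Snrpn*, at 2.37, lies beyond the axis and is at 0 in at least 1 rat.

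The tissue-dependent regulators of exon choice were mostly close to 0 or uncertain. *Esrp1*, the epithelial splicing regulator, had counts of 903, 997 and 1290 within WOS and 1121, 1194 and 1396 outside. Of the younger rats 4 of 6 were below all older ones, and the log2 fold change of -0.21 (95% interval -0.45 to 0.03) did not pass (adjusted p = 0.213). *Esrp2* had counts of 489, 619 and 750 against 533, 622 and 767, with a log2 fold change of -0.044 (95% interval -0.33 to 0.24, adjusted p = 0.846) whose sign changed without rat 86 (0.025) and under scaling to equal totals. Both ESRP genes were present in every rat, as were the luminal and basal markers.

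*Rbfox2*, the 1 RBFOX gene in the table and a regulator of muscle, nerve and epithelial exons, had counts of 259, 305.5 and 330 against 302, 350 and 504. The log2 fold change was -0.28 (SE 0.12, adjusted p = 0.14). *Mbnl1* and *Mbnl2*, which promote adult patterns of splicing, were at -0.049 (95% interval -0.25 to 0.15) and 0.051 (-0.19 to 0.29). *Mbnl3* was at 0.64 (SE 0.28, adjusted p = 0.141), with counts of 69, 143 and 200 against 50, 78 and 168.

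*Khdrbs3* (ENSRNOG00000009539), a relative of Sam68 with restricted expression, was DE and higher within WOS. Its counts were 108, 144 and 173 at 6 weeks and 56, 95 and 111 at 10 weeks, and 5 of 6 younger rats were above all older ones. The log2 fold change was 0.6 (SE 0.17, adjusted p = 0.0301), and the call was lost without rat 70, 80, 84, 72 or 74 (adjusted p up to 0.069). *Khdrbs1*, which encodes Sam68 itself, was at -0.22 (SE 0.12, adjusted p = 0.223).

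*Celf5* (ENSRNOG00000004695), of a family that opposes MBNL proteins at many exons, was DE and higher within WOS at very low counts, 8, 15.5 and 17 against 3, 6 and 13. The log2 fold change of 0.85 (SE 0.27, adjusted p = 0.0482) was near the threshold and held in 2 of 13 fits without 1 rat, those without rat 86 or 85 (adjusted p up to 0.103 in the others). It was also lost with a pseudocount of 0.1, with limma-trend and under median-ratio and library size scaling. *Celf2* had counts of 69, 84.5 and 123 against 59, 89 and 96 and a log2 fold change of 0.034 (95% interval -0.28 to 0.35), and *Celf1* was at -0.081 (SE 0.1). The sign of *Celf2* turned negative without rat 86 (-0.067) or rat 74 (-0.051).

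RBM and RBMX proteins, a class named for the RNA recognition motif and of varied function, were lower within WOS for 28 of 39 genes (median -0.13). None was DE and higher at 6 weeks in limma (against 8.71% of all genes), and 1 was higher at an unadjusted p under 0.05 (2.56%, against 16.8%). At that unadjusted level 7 were lower (17.9%), near the 14.8% of all genes. DE and higher at 10 weeks were 4 (10.3%), near the 7.39% of all genes. *Rbm6* (ENSRNOG00000018333), a splicing regulator, had counts of 637, 784 and 1006 at 6 weeks and 989, 1229 and 1471 at 10 weeks. Of the younger rats 5 of 6 were below all older ones, and the log2 fold change was -0.6 (SE 0.13, adjusted p = 0.0112). Its paralog and neighbour *Rbm5* was at -0.29 (SE 0.11, adjusted p = 0.0953), and passed without rat 81 (-0.35, adjusted p = 0.0339).

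*Rbm15* (ENSRNOG00000047499), an adaptor of the complex that methylates adenosines in RNA, had counts of 934, 967 and 1137 against 1092, 1267 and 1307. Its log2 fold change was -0.3 (SE 0.087, adjusted p = 0.0369), and the call was kept in 4 of 13 fits without 1 rat, those without rat 71, 72, 81 or 85 (adjusted p up to 0.0758 in the others). It was lost as well under scaling to equal totals and with sample quality weights. *Rbm28* (ENSRNOG00000005468), a nucleolar protein of ribosome assembly, had counts of 211, 256.5 and 351 against 273, 390 and 458. A log2 fold change of -0.51 (SE 0.16, adjusted p = 0.0481) resulted, and of the fits without 1 rat those without rat 75, 86 or 85 kept the call (adjusted p up to 0.111 in the others), which upper quartile scaling also removed. *Rbm3*, the cold-inducible protein, had counts of 3259, 4798.5 and 5297 against 3570, 3728 and 4490, so that the younger rats spread on both sides of the older ones, with a log2 fold change of 0.18 (95% interval -0.12 to 0.49).

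Among the RBM and RBMX genes that were neither DE nor at 0 in any rat, values ran from -0.45 for *Rbm24* to 0.57 for *Rbm43*, with adjusted p of 0.152 and 0.0748. *Rbm27* came nearest to the threshold (-0.34, adjusted p = 0.0586). *Rbm47*, an RNA-binding protein of epithelia, was at 535, 816 and 1018 against 432, 532 and 1330 (0.24, SE 0.28), and the older rats spanned the younger ones.

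The 3 RBMS genes, which encode single-strand binding proteins, were all lower within WOS at similar size. *Rbms1* had counts of 853, 1198 and 1463 at 6 weeks and 1317, 1541 and 1692 at 10 weeks, with a log2 fold change of -0.35 (SE 0.13). *Rbms2* and *Rbms3* were each at -0.32 (SE 0.13). None of the 3 was DE in limma, with adjusted p of 0.0862, 0.102 and 0.107 and an unadjusted p under 0.05 for all 3. Of all genes, 14.8% were lower at that unadjusted level.

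*Rbm4b* (ENSRNOG00000061795) was DE and higher at 10 weeks, and reads that match both it and its neighbouring paralog *Rbm4* cannot be assigned with certainty, so both values are uncertain. *Rbm4b* counts were 328, 436.5 and 497 at 6 weeks and 533, 578 and 762 at 10 weeks, without overlap (log2 fold change -0.52, SE 0.12, adjusted p = 0.0144). *Rbm4* was at 495, 590 and 635 against 504, 559 and 731 (-0.068, adjusted p = 0.722). Summed as 1 gene, the pair ran from 930 to 1077 at 6 weeks and from 1100 to 1493 at 10 weeks, still without overlap, but the log2 fold change of -0.27 (SE 0.093) no longer passed (adjusted p = 0.0613). *Rbm25* and the row *Rbm25l1* are another pair of like name, at -0.13 and -0.26, and their sum was at -0.23 (SE 0.16, adjusted p = 0.33).

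A few members were listed at 0 in some rats while high in others. *Hnrnpab*, an hnRNP A/B protein, was at 0 in 4 rats at 6 weeks (rats 70, 71, 84 and 86) and in 1 at 10 weeks (rat 85), and between 232 and 815 in all others. All 5 rats at 0 were of the larger set of 8, and the 5 rats of the smaller set were at 432 to 815. Its nominal log2 fold change of -4.53 (SE 2.08, adjusted p = 0.153) rests on the rats at 0, and without rat 85 the fit called it DE (-5.8, adjusted p = 0.0469). *Rbm12b* was at 0 in rat 78 only and between 58 and 144 elsewhere. Its log2 fold change of 0.81 (SE 0.98) turned to -0.15 without that rat.

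*Rbm12* was at 0 in rats 75, 80, 74 and 81 and between 251 and 925 in the others. The gene overlaps *Cpne1*, copine 1, in the RefSeq annotation, and the counts of both traded off between rats. Where *Rbm12* was at 0, *Cpne1* stood between 733 and 946, and where *Cpne1* was at 0, in rats 70, 84 and 78, *Rbm12* stood between 762 and 925. The sum of both ran only from 733 to 946 over all 13 rats, and its log2 fold change was -0.11 (SE 0.088, adjusted p = 0.422). The value for *Rbm12* alone, -0.71, had an SE of 2.34.

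**Figure D5:**
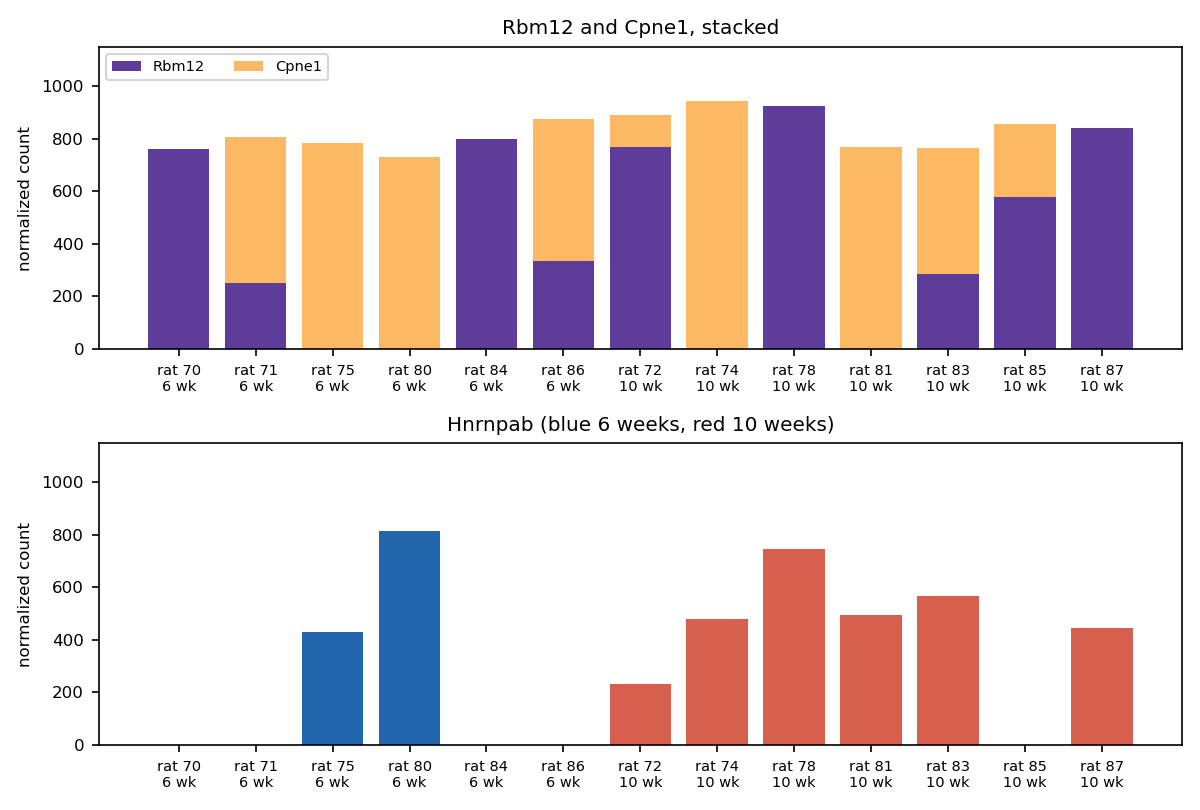
Normalized counts by rat on linear axes from 0, with *Rbm12* and *Cpne1* stacked (top) and *Hnrnpab* (bottom). The stacked total stays between 733 and 946 while its split changes from rat to rat, and *Hnrnpab* is at 0 in 4 rats at 6 weeks and 1 at 10 weeks.

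Within the larger set, of 4 rats at each age, the median of the members was -0.19, with 17 (16.3%) DE and higher at 10 weeks and 6 (5.77%) DE and higher at 6 weeks. The counts over the whole table rose too, to 9.92% and 13.6% of 14774 genes. Within the smaller set, of 2 and 3 rats, the median was -0.12 and limma called no gene of the whole table. At an unadjusted p under 0.05, 5 members were higher at 10 weeks and 2 at 6 weeks. The share of all genes at that level was not counted in this set, so nothing is read from these counts. The SR proteins had medians of -0.46 in the larger and -0.18 in the smaller set, the CLK kinases of -0.36 and -0.068, and the hnRNP proteins of -0.14 and -0.17. For SF3A, SF3B and U2AF the medians were 0.15 and -0.15, of opposite sign. Whether the age difference itself differed between the sets was not tested.

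Other mRNA-binding regulators outside the member families gave 46 genes, 33 of them lower within WOS (median -0.1). DE and higher at 10 weeks were 4 (8.7%), near the 7.39% of all genes, and 2 (4.35%, against 8.71%) were DE and higher at 6 weeks. *Zfp36l1*, which speeds the decay of messengers with AU-rich elements, was at 5877, 6793 and 7234 within WOS and 10266, 12387 and 15480 outside, without overlap (log2 fold change -0.9, SE 0.11, adjusted p = 0.00031). Its relative *Zfp36* was at 2472, 2695.5 and 3365 against 3646, 3973 and 6348, again without overlap (-0.61, adjusted p = 0.0145). *Igf2bp1*, an mRNA-binding protein typical of fetal tissue, was low but higher within WOS, at 10, 17 and 28 against 3, 7 and 8 (1.51, SE 0.27, adjusted p = 0.00297).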

How the data were processed

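RNA-seq of mammary epithelial cells covered 6 rats at 6 weeks and 7 at 10 weeks of age, 1 library per rat, grouped by the labels. The authors obtained counts with RSEM 1.2.22. Per the labels the build was rn5 (submitters' processing notes, which also list edgeR and DESeq2), whereas the paper names rn6, and the annotation is not given in the sources used here. The authors scaled each library and deposited the counts rounded to whole numbers, so the unit of the deposited values is a score, called normalized counts. Precision at low counts depends on the depth before scaling, which the table does not state. The same deposited table holds the authors' comparison of the ages (log2 fold changes and abundances, a likelihood ratio score, p-values, false discovery rates and logarithms of these), gene descriptions and a column on location in nucleus or cytoplasm. None of these was used. No per-rat column was left out. Of the rats the labels give strain and age.

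Members were the rows whose symbols match the family names. The members, families and lists were chosen with earlier results of these data known. Where counts or calls are given for a list, no test of the list was made. limma 3.58.1 in R 4.3.3 was fitted to log2(normalized count + 1) for all 14790 genes, each with a mean of at least 1, without covariates. Tests were two-sided, with Benjamini-Hochberg adjustment over all genes and a threshold of 0.05. The fit was tested on simulated data. Of 100 genes given a log2 change of 0.5 it called 15 in the right direction, and of 100 given a change of 1 it called 68. It also called 3 genes without a change. A gene that was not DE can therefore still differ by such amounts. Named were all DE members, the member with the highest mean in each family without one, Esrp1, Esrp2, Srsf1, Hnrnpa1, Ptbp1, Rbfox2, Celf2, Mbnl1, Clk1 and Rbm3, and up to 3 DE genes per pathway list with the largest change. Other genes, 13 members among them described with values and some given for comparison with a relative or at the end of a range, were picked with their values in view.

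The libraries were also scaled anew by median ratios, to equal totals or to equal upper quartiles. Further alternatives were limma-trend, sample quality weights, no filter, at least 10 counts in all rats, 0.1 as the pseudocount, fits without single rats, fits within either set of rats, and the leading residual component as a covariate. Sums of genes that can share reads were added after the data were seen. Promoters and gene neighbours are from RefSeq (GRCr8), matched by symbol. 17 members had no promoter there, and 8 had several starts. Figures were drawn with matplotlib 3.10.9 (Python 3.11.15), and counts were made with pandas 2.3.3.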

Additional observations from a re-analysis of the deposited data

Results flagged for a closer look

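Of 80 groups of rats tested for a single rat far from the rest (40 named members at 2 ages), 5 held one, and chance alone gives about 1 in 20. At 6 weeks *Celf2* was at 123 normalized counts in rat 86 and at 69 to 85 in the others, and at 10 weeks it was at 59 in rat 74 and at 85 to 96 in the others. *Hnrnpdl* was at 2572 in rat 74 and at 1968 to 2164 in the other 10-week rats. *Khdrbs3* was at 56 in rat 78 and at 91 to 111 in the other 10-week rats. *Rbm15* was at 1137 in rat 71 and at 934 to 994 in the other 6-week rats.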

How the results depend on the processing

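The direction of the members' median held under every alternative tried, from -0.21 to -0.14 when single rats were left out and from -0.19 to -0.12 otherwise. Among these, the fit with no filter was the main fit again, since every gene met the mean of 1. The leading residual component could not move the fold changes, since it was built after the age means were taken out. The 11 members DE and higher at 10 weeks became 7 to 17 without 1 rat, with 7 without rat 70, 84, 74 or 87 and 17 without rat 81. They became 31 with sample quality weights, 17 in the larger set alone, 0 in the smaller set alone and 20 with the leading residual component as a covariate, while the share of all genes went from 7.39% to 17.8%, 9.92%, 0 and 11.2%. The 3 members DE and higher at 6 weeks became 0 to 3 without 1 rat, with 0 without rat 70, 84, 72 or 74. They became 1 with median-ratio scaling, 12 with sample quality weights, 6 in the larger set alone and 0 in the smaller set alone, while the share of all genes went from 8.71% to 8.13%, 20.3%, 13.6% and 0. The cause of these changes was not tested, and the smaller set holds 5 rats. *Srsf2*, *Srsf3*, *Srsf10*, *Hnrnpdl*, *Hnrnph3*, *Rbm4b* and *Rbm6* stayed DE in all 13 fits without 1 rat. Scaling to equal totals gave 69 of 104 members lower at 6 weeks, where 43.2% of all genes were lower.

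Signs changed for members that were not DE. With sample quality weights *Celf2* was at -0.1, *Esrp2* at 0.064, *Rbm12b* at -0.16 and *Rbm4* at 0.1. In the larger set alone *Esrp2* was at 0.027, *Mbnl2* at -0.041, *Rbm12* at 1.77, *Rbm12b* at -0.45 and *Rbm4* at 0.13. In the smaller set alone *Celf2* was at -0.047, *Ptbp1* at -0.28, *Rbm3* at -0.17, *Sf3b1* at 0.0091, *Rbm25* at 0.16 and *Rbm47* at -0.43. Scaling to equal totals put *Esrp2* at 0.0032. Without 1 rat, *Celf2* ran from -0.067 to 0.1, *Esrp2* from -0.1 to 0.025, *Rbm12* from -1.82 to 0.47 and *Rbm12b* from -0.15 to 1.05. No paired analysis was possible because the ages share no replicate numbers. Since the deposited values are rescaled, counting error cannot be given, and this limits low genes such as *Celf5* most.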
